A study of Mus musculus with 9 samples.

Results

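Axon guidance ligands and receptors are the secreted and membrane-bound cues, and the surface proteins that read them, by which growing axons find their way. The genes described here were chosen by symbol alone, as protein-coding members of the Slit, Robo, semaphorin, plexin, neuropilin, ephrin, Eph receptor, netrin and Dcc/Unc5 families, and 68 of the 47729 gene identifiers counted, of which 21697 were protein-coding, met that rule. They comprised 34 ligands and 34 receptors: 3 Slit, 4 Robo, 20 semaphorin, 11 plexin and neuropilin, 9 Epha, 5 Ephb, 5 ephrin-A, 3 ephrin-B, 3 netrin, and 5 Dcc and Unc5 genes. The rule uses no measured value, but the families were picked with earlier results of these data known.

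RNA was sequenced from ventral midbrain dissected from C57/Bl6 mice at postnatal day 180. All mice, controls included, carried 1 Pitx3-Cre allele and a Rosa-lox-stop-lox-YFP reporter, and they differed in the number of floxed alleles of Dot1l, the enzyme that methylates lysine 79 of histone H3. Dot1l(+/+) controls had 0, Dot1l(fl/+) mice 1 and Dot1l(fl/fl) mice 2 floxed alleles, with 3 libraries per genotype, each a pool of 3 mice; the pools were built from litter-matched sets of the 3 genotypes, and p-values measure the spread between pools. Pitx3 drives Cre in midbrain dopamine neurons, so the other cells of the dissected tissue kept Dot1l, and the comparison asks how the tissue differs when 1 or 2 alleles of the gene are removed in the dopamine neurons.

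In textbook accounts, Slit proteins repel axons through Robo receptors. Semaphorins act through plexins, and most of the secreted class 3 semaphorins also need a neuropilin. Ephrins are anchored to the membrane and bind Eph receptor tyrosine kinases on the neighbouring cell, while netrin-1 attracts axons through Dcc and repels them when an Unc5 receptor takes part. Dopamine axons that run from the midbrain to the striatum meet several of these cues during development, and many of the genes remain expressed in the adult brain.

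The deposited counts summed to 16422135 to 28403218 per library, with the lowest total in Dot1l(fl/fl) replicate 3, and the 68 genes held 0.361 to 0.394% of them. Dopamine neuron markers were present in every library, as were those of oligodendrocytes, astrocytes, microglia and GABA neurons, so the labelled dopamine neurons were measured together with the cells around them. Dot1l(fl/+) replicate 2 stood apart: it differed from the other Dot1l(fl/+) libraries by 16.8 and 18.1 times the variance of counting, against 4.83 to 9.02 times for all other replicate pairs. It held the lowest of the 9 values for 24 of the 67 tested guidance genes (35.8%), while it held the lowest value for 17.5% of all tested genes. Summed hypothalamic markers reached 1461% and 705% of the control mean in Dot1l(fl/+) replicates 1 and 3, and choroid plexus and ependymal markers reached 471% in replicate 3, against 57.4 to 139% and 56.1 to 126% in controls. Dot1l itself, whose counts also include exons outside the floxed one, was at 80.2 to 85.2 CPM (counts divided by the scaled size of the library) in controls, 60.6 to 84.2 with 1 floxed allele and 73.9 to 82.9 with 2, and its log2 fold change against controls was −0.19 and −0.069 (edgeR adjusted p = 0.62 and 0.999); these counts are not a measure of the loss of the floxed exon.

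All 68 guidance genes were detected in the adult midbrain, and 67 passed the filter on low counts; Ntn5, at 0.038 to 0.316 CPM, did not and was not tested. Levels between genes are given as CPM per kilobase of merged exons (CPM/kb), mean ± SD of the 3 control libraries. Efnb3, a transmembrane ephrin, was the highest at 49.7 ± 1.58 CPM/kb. Sema7a, a membrane-anchored semaphorin, followed at 36.8 ± 2.16, and Epha4, a receptor that binds ephrins of both classes, at 30.8 ± 2.54. These levels were of the size of Th, the rate-limiting enzyme of dopamine synthesis, which was at 31.8 ± 4.36 CPM/kb in the same libraries. At the other end stood Sema3a at 0.26 ± 0.074, Epha1 at 0.22 ± 0.057, Efna4 at 0.205 ± 0.11 and Ntn5 at 0.098 ± 0.030 CPM/kb. When the 68 genes were put in order of their control level, 13 of the 67 pairs of neighbours were farther apart than their SDs added together, so most neighbours in that order were not separated by the replicate spread. The order also depends on the length used. Per kilobase of the longest transcript, Epha4 (39.1) was above Sema7a (36.8), and Nrp1 was at 28.9 against 10.8 per kilobase of merged exons.

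**Figure D1:**
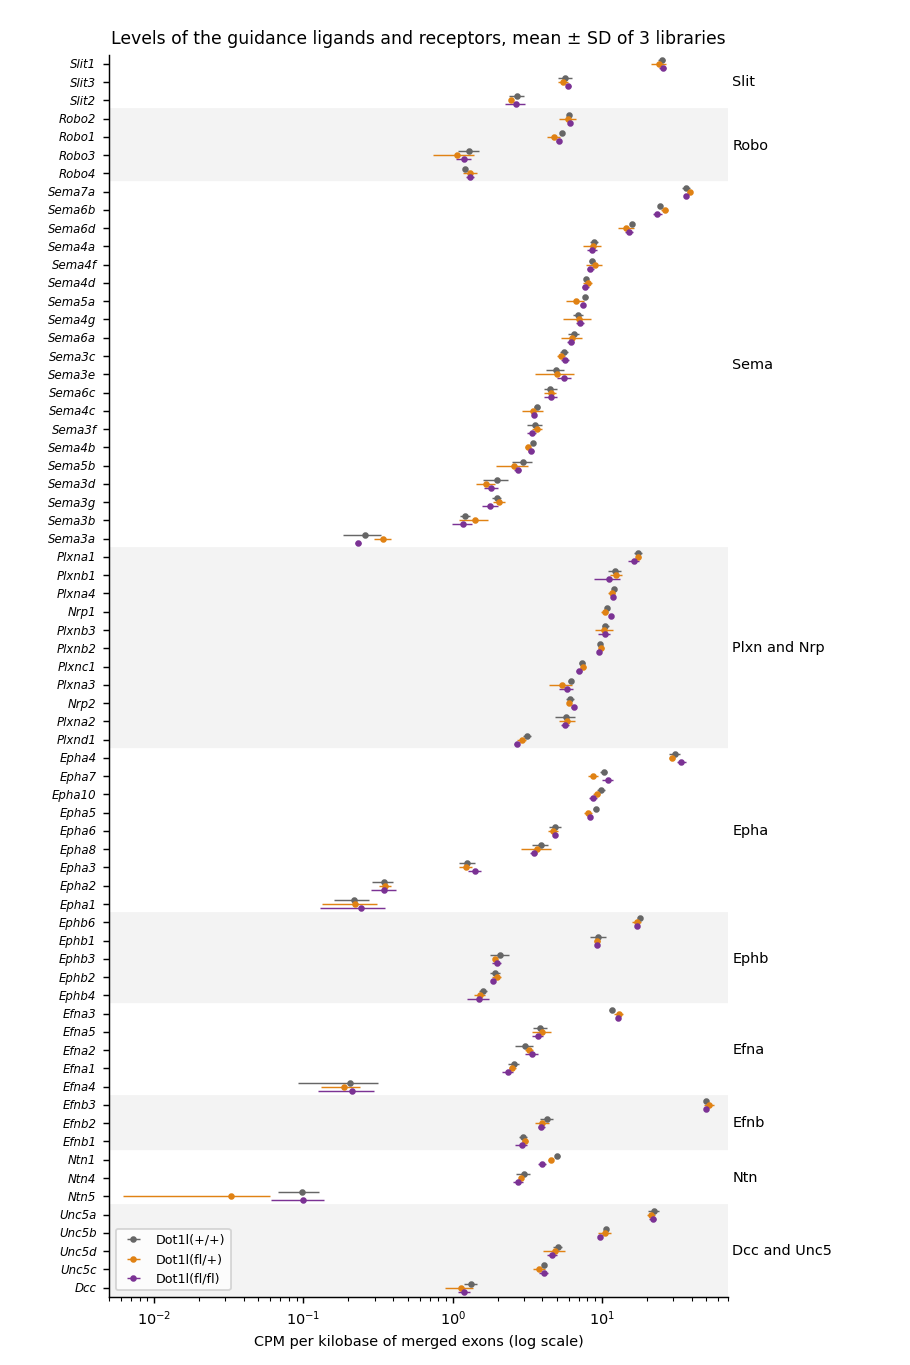
Level of each guidance ligand and receptor in CPM per kilobase of merged exons (log axis), ordered within family by the control mean; points are means and bars SDs of 3 libraries for Dot1l(+/+) (grey), Dot1l(fl/+) (orange) and Dot1l(fl/fl) (purple). Levels span from 0.098 CPM/kb (Ntn5) to 49.7 CPM/kb (Efnb3) in controls, and the 3 genotypes lie close together for nearly every gene beside that span.

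Levels differed widely within families. Among the Slits, Slit1 was at 25.1 ± 1.51 CPM/kb, Slit3 at 5.70 ± 0.64 and Slit2 at 2.69 ± 0.31. Per kilobase of the longest transcript, Slit2 (6.86) and Slit3 (6.61) were close and in the other order. Of their receptors, Robo2 was at 6.06 ± 0.094 CPM/kb and Robo1 at 5.38 ± 0.070. Robo3, known from commissural axons, was at 1.29 ± 0.21, and Robo4, known from blood vessels, at 1.21 ± 0.043 CPM/kb. Per kilobase of merged exons, Ntn1 lay between its receptors, an order that depends on the length used. Unc5a was at 22.2 ± 1.77 CPM/kb, Unc5b at 10.7 ± 0.20, Unc5c at 4.10 ± 0.14 and Dcc at 1.33 ± 0.13, while Ntn1 was at 5.04 ± 0.18. Plxna1, the leading plexin, was at 17.4 ± 1.04 CPM/kb, and Nrp1 and Nrp2, which bind class 3 semaphorins, were at 10.8 ± 0.22 and 6.15 ± 0.39. The secreted semaphorins Sema3c and Sema3f were at 5.60 ± 0.35 and 3.56 ± 0.41 CPM/kb, and Plxnc1, the receptor of Sema7a, was at 7.38 ± 0.32. Of the Eph receptors with B-type names, Ephb6, which lacks kinase activity, led at 18.1 ± 0.27 CPM/kb, with Ephb1 at 9.49 ± 1.11. Efna3 was the highest ephrin-A at 11.6 ± 0.47 CPM/kb, against 3.87 ± 0.41 for Efna5, and Efnb2 was at 4.30 ± 0.44.

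No guidance gene reached an adjusted p under 0.05 in any comparison with edgeR in the fit of all 9 libraries, and neither did any other of the 17671 genes tested in it. Without the filter on low counts, when 28316 genes were tested, Epha7, Sema5a and Ntn1 did, as given with each gene. The number of all genes that passed in that fit is not given, so these values stand without a background share. Among the settings other than leaving out a library, only that fit gave a guidance gene an adjusted p under 0.05 in the pairwise comparisons. At an unadjusted p under 0.05, 5 of the 67 guidance genes (7.46%) differed between Dot1l(fl/+) and controls, against 8.39% of all genes tested; 4 were lower, against 4.09%, and 1 was higher, against 4.3%. Between Dot1l(fl/fl) and controls there were 5 (7.46%), against 3.93%, with 4 lower, against 1.72%, and 1 higher, against 2.21%. Between Dot1l(fl/fl) and Dot1l(fl/+) there were 6 (8.96%), against 6.48%, with 3 lower, against 2.87%, and 3 higher, against 3.6%. The test for any difference among the 3 genotypes gave 8 (11.9%), against 6.44%: Ntn1, Epha7, Epha5, Epha4, Sema3a, Plxnd1, Sema5a and Robo1. Counts and calls named for a gene or family come from the edgeR fit of all 9 libraries unless another setting is given with them. The lowest adjusted p-values of a guidance gene by edgeR were 0.541, 0.970, 0.535 and 0.746 in these 4 tests. With so few genes in a count, 1 library could move it by several genes, and the ranges are given with the other settings.

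Guidance genes had lower fitted levels than controls more often than higher ones in each floxed genotype, by amounts close to the replicate spread. The median log2 fold change of the 67 genes was −0.039 in Dot1l(fl/+) (42 lower, 25 higher) and −0.046 in Dot1l(fl/fl) (48 lower, 19 higher), against −0.0034 and 0.0009 over all genes tested, of which 51.1% and 49.6% were lower and 48.9% and 50.4% higher. The SD of this median between replicate libraries was 0.042. Leaving out Dot1l(fl/+) replicate 2 moved the first median to −0.019, and leaving out control replicate 1 or Dot1l(fl/fl) replicate 2 moved the second to −0.029 or −0.019. These comparisons share the 3 control libraries, and 32 of the 67 genes (47.8%) were lower in both, against 33.4% of all genes tested, while 9 (13.4%) were higher in both, against 32.7%. The guidance genes are long, with a median of 6851.5 exon bases against 3972.5 for all genes tested, and protein-coding genes with at least 5000 exon bases had medians of −0.035 (4143 of 6409 lower) and −0.012 (3614 of 6409 lower) in the same comparisons. When gene length and GC content entered the fit as an offset, the medians of the guidance genes were −0.019 (38 lower) and −0.022 (41 lower). Between Dot1l(fl/fl) and Dot1l(fl/+) the median was 0.0062, with 33 lower and 34 higher, against 49.5% lower and 50.5% higher over all genes tested. Receptors had medians of −0.051 and −0.043 against controls for the heterozygous and homozygous floxed mice, and ligands of −0.024 and −0.046.

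**Figure D2:**
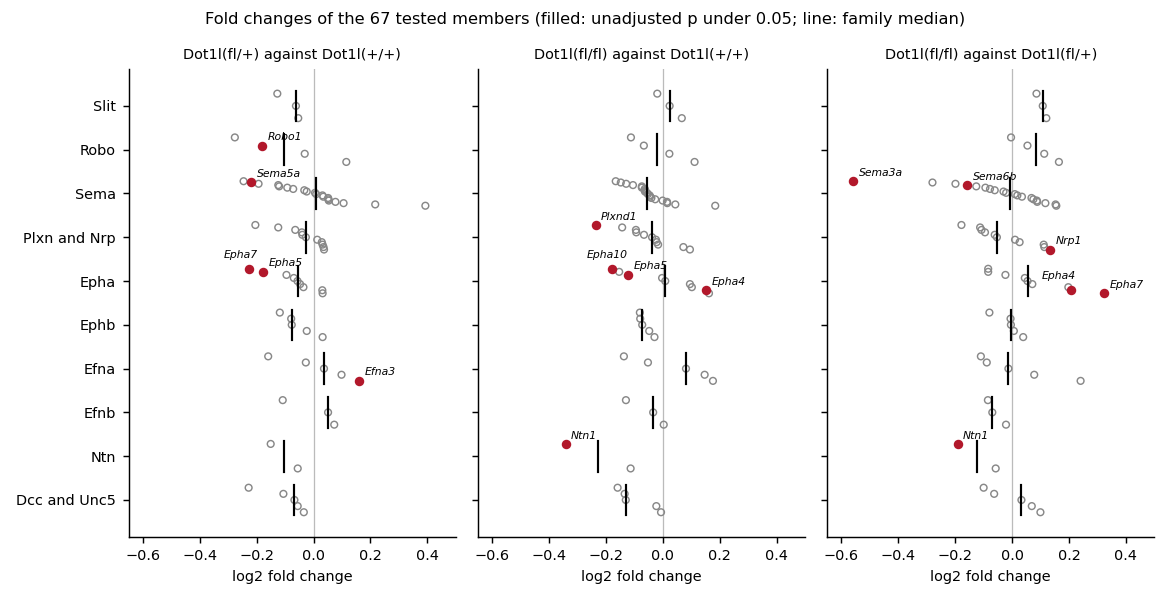
Log2 fold change of each of the 67 tested guidance genes by family in 3 comparisons; filled red points are genes with an unadjusted p under 0.05, open points the others, and the black line is the family median. Ntn1 (−0.34) is the lowest point against controls in Dot1l(fl/fl). Epha7 is at −0.23 in Dot1l(fl/+) and at 0.095 in Dot1l(fl/fl) against controls. Between Dot1l(fl/fl) and Dot1l(fl/+) it is at 0.32, where the same Dot1l(fl/+) libraries enter with the opposite sign.

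Among the ligands, Ntn1 had the lowest unadjusted p against controls in Dot1l(fl/fl). Ntn1 (ENSMUSG00000020902, GRCm38 chr11:68209364-68400823, minus strand) encodes netrin-1, a secreted guidance protein. It was at 32.7, 31.6 and 30.5 CPM in the control libraries, at 29.2, 28.9 and 27.3 with 1 floxed allele and at 24.2, 24.0 and 26.9 with 2. The 3 genotypes did not overlap, and their order followed the number of floxed alleles. The log2 fold change was −0.34 in Dot1l(fl/fl) (SE 0.071, 95% interval −0.49 to −0.19, edgeR adjusted p = 0.970), which is 21.1% below controls. In Dot1l(fl/+) it was −0.15 (SE 0.070, 95% interval −0.30 to 0.0006, edgeR adjusted p = 0.596), and between the floxed genotypes it was −0.19 (95% interval −0.34 to −0.04, edgeR adjusted p = 0.726). Without the filter on low counts, the edgeR adjusted p of Ntn1 in Dot1l(fl/fl) was 0.0410. Over the 9 fits that each left out 1 library, the value in Dot1l(fl/fl) against controls lay between −0.39 and −0.31. The value between the floxed genotypes lost an unadjusted p under 0.05 without Dot1l(fl/+) replicate 1 (−0.17) or without replicate 1 (−0.17) or 2 (−0.16) of Dot1l(fl/fl), and with DESeq2 fitted to those 2 genotypes alone (−0.19). Such a stepwise order without overlap, downwards, was seen in 5 of the 17671 genes tested (0.0283%), and the upward order in 0.0226%. How many genes a random order of the 9 libraries would give was not worked out, so these shares do not show the pattern to be rarer than that. Ntn1 was the single guidance gene among them. Slc6a3, the dopamine transporter, was another and is named because it is on the dopamine neuron list, while the rest are not named.

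Summed markers of dopamine neurons, like Ntn1, were below all controls in Dot1l(fl/fl), but in Dot1l(fl/+) they met the control range, with replicate 2 at 94.21% of the control mean and the lowest control at 94.17%, while Ntn1 did not. Their summed CPM was 94.2 to 105% of the control mean in controls, 75.6 to 94.2% in Dot1l(fl/+) and 74.5 to 78.4% in Dot1l(fl/fl), and Ntn1 was at 96.5 to 103%, 86.4 to 92.3% and 75.8 to 85.0% of its control mean. Of the 16 markers, all tested and none of them at 0, 6 had an unadjusted p under 0.05 for Dot1l(fl/+) and 12 for Dot1l(fl/fl), all of them lower, with medians over the list of −0.20 and −0.37 on the log2 scale. Slc6a3 was at 144 to 166 CPM in controls, 106 to 141 with 1 floxed allele and 92.9 to 101 with 2. In libraries of whole tissue, fewer cells of a type and less RNA per cell cannot be told apart, and the part of the dopamine neuron markers in the Ntn1 result was not tested. Other lists also separated Dot1l(fl/fl) from controls: choroid plexus and ependymal markers were at 34.1 to 41.0% of the control mean there, against 56.1 to 126% in controls, and microglia markers at 106 to 115%, against 97.5 to 102%. Their part in the Ntn1 result was not tested. Summed markers of oligodendrocytes, astrocytes and GABA neurons were at 89.7 to 109% of the control mean in every library, with both floxed genotypes overlapping controls. Between the floxed genotypes, GABA neuron markers did not overlap (94.0 to 97.6% with 1 floxed allele, 99.5 to 103% with 2), and 5 of 12 oligodendrocyte markers (Mbp, Mag, Cnp, Cldn11 and Mal) were lower in Dot1l(fl/fl) at an unadjusted p under 0.05, against 2.87% of all genes.

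**Figure D3:**
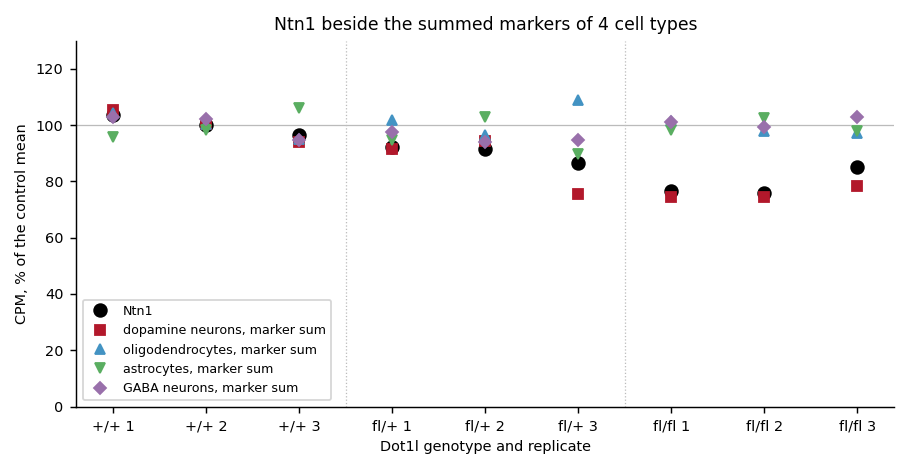
CPM of Ntn1 (black circles) and summed CPM of the markers of dopamine neurons (red squares), oligodendrocytes, astrocytes and GABA neurons in each of the 9 libraries, as a percentage of the control mean. Ntn1 lies at 75.8 to 85.0% and the dopamine neuron markers at 74.5 to 78.4% in Dot1l(fl/fl), while the other 3 lists drawn stay between 89.7 and 109% in all libraries; choroid plexus, ependymal and microglia markers, which also separated Dot1l(fl/fl) from controls, are not drawn.

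The other tested netrin and the netrin receptors had no unadjusted p under 0.05 in any comparison when edgeR was fitted by genotype alone to all 9 libraries after the filter on low counts. Ntn4, a netrin of basement membranes, was at 9.77 to 11.98 CPM in controls, 10.4 to 11.1 with 1 floxed allele and 9.83 to 11.2 with 2, so its libraries overlapped. Dcc was at 15.9 to 19.4 CPM in controls, 11.6 to 17.9 with 1 floxed allele and 14.2 to 17.1 with 2, with log2 fold changes of −0.23 (SE 0.14) and −0.16 (SE 0.14). The first was −0.38 and passed an unadjusted p of 0.05 without Dot1l(fl/+) replicate 1, was −0.15 without control replicate 1 and −0.074 without Dot1l(fl/+) replicate 2, and passed at −0.22 without the filter. All 5 genes of the Dcc and Unc5 group had negative fold changes against controls in both floxed genotypes, with medians of −0.067 and −0.13. Of all guidance genes tested 47.8% were lower in both, against 33.4% of all genes tested. None of the 5 had an unadjusted p under 0.05 in the edgeR fit of all 9 libraries. With the length and GC offset Unc5a (0.019) and Unc5c (0.037) turned positive in Dot1l(fl/fl). Unc5b, an Unc5 receptor also known from blood vessels, was at 66.8, 65.8 and 68.3 CPM in controls and at 61.02, 59.5 and 62.6 in Dot1l(fl/fl). Those groups did not overlap, yet the 95% interval of the log2 fold change of −0.13 included 0 (−0.28 to 0.014, SE 0.069, edgeR adjusted p = 0.999). It passed an unadjusted p of 0.05 at −0.13 without Dot1l(fl/+) replicate 2 or 3 and when edgeR was fitted to Dot1l(fl/fl) and controls alone. It also passed when DESeq2 was fitted to those 2 genotypes alone. The value of Unc5b between the floxed genotypes, −0.10, passed at −0.17 without Dot1l(fl/+) replicate 2 and was −0.021 without replicate 3. Unc5c, known from studies of dopamine axon growth, was at 75.3 to 80.3, 67.7 to 80.9 and 74.5 to 84.2 CPM in the 3 genotypes, and passed in Dot1l(fl/+) (−0.19) and between the floxed genotypes (0.18) without Dot1l(fl/+) replicate 1.

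Of the 14 Eph receptors tested, 2 were lower in Dot1l(fl/+) at an unadjusted p under 0.05, against 4.09% of all genes tested. In Dot1l(fl/fl) 2 were lower and 1 higher, against 1.72% and 2.21%, and between the floxed genotypes 2 were higher, against 3.6%. These calls fell on Epha4, Epha5, Epha7 and Epha10, whose patterns differed from each other. The sequences of 250 bases before the start sites of 3 of them are shown because these A-type receptors share a ligand class and yet had different orders of the 3 genotypes. They were taken from RefSeq (GRCm38.p6) and are written 5′ to 3′ on the strand of the gene, with CG dinucleotides in capitals. Epha4 lies at chr1:77515089-77515338 on the minus strand, Epha5 at chr5:84417383-84417632 on the minus strand, and Epha7, the first of 2 listed, at chr4:28812881-28813130 on the plus strand.
Epha4: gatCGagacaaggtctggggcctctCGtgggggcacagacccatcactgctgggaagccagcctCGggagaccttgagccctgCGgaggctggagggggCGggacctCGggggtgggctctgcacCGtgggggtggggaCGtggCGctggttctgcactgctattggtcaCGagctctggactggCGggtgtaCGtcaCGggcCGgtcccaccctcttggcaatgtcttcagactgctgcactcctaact
Epha5: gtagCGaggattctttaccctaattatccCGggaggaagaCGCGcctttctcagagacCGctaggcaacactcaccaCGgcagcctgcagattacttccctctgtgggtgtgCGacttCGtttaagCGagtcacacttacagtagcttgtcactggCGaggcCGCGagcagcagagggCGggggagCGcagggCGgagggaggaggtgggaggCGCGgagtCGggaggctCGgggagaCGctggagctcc
Epha7: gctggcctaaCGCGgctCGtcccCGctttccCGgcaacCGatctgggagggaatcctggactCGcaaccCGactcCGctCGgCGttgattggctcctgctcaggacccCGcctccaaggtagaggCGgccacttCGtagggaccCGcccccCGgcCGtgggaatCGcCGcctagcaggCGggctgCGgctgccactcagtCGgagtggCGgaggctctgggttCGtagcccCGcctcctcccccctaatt
These windows hold 14, 20 and 25 CG dinucleotides, against a median of 6 over the 32851 listed windows of this length and of 15.5 over the 74 windows listed for 58 of the guidance genes. Letters that match AAAGGTCA on either strand, a form bound by the dopamine neuron factor Nr4a2, were in none of the 74 windows and in 1.34% of all windows. Letters that match TAATCC on either strand, a form bound by Pitx-type homeodomain proteins, were in 2 of the 74 (Robo3 and Robo4) and in 6.25% of all.

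Epha7, a receptor for ephrin-A ligands (ENSMUSG00000028289, chr4:28813131-28967499, plus strand), had the lowest unadjusted p between the floxed genotypes. It was at 95.9, 106 and 102 CPM in controls, at 91.0, 90.7 and 78.5 with 1 floxed allele and at 106, 119 and 101 with 2. Every Dot1l(fl/+) library was below every library of the other genotypes, while Dot1l(fl/fl) overlapped with controls. The fitted log2 difference of Epha7 from controls was −0.23 in Dot1l(fl/+) (SE 0.073, 95% interval −0.38 to −0.07, edgeR adjusted p = 0.541) and 0.095 in Dot1l(fl/fl) (SE 0.073, 95% interval −0.06 to 0.25, edgeR adjusted p = 0.999), and that between Dot1l(fl/fl) and Dot1l(fl/+) was 0.32 (SE 0.073, 95% interval 0.17 to 0.48, edgeR adjusted p = 0.535). Without Dot1l(fl/+) replicate 2 these values were −0.26, 0.096 and 0.36. With the length and GC offset the value of Dot1l(fl/+) was −0.15 and no longer passed an unadjusted p of 0.05. Without the filter on low counts, the edgeR adjusted p of Epha7 was 0.0497 in Dot1l(fl/+) and 0.000309 between the floxed genotypes.

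Epha5, another ephrin-A receptor, tied to the wiring of dopamine neurons (ENSMUSG00000029245, chr5:84054761-84417382, minus strand), was lower than every control in both floxed genotypes. It was at 146, 158 and 154 CPM in controls, at 144, 136 and 126 with 1 floxed allele and at 138, 139 and 144 with 2. The gap was small, since the lowest control was at 146 CPM and the highest floxed library at 144. Dopamine neuron markers were also lower in these 2 comparisons (15 of 16 and 16 of 16, medians −0.20 and −0.37), and their part in the Epha5 result was not tested. Fitted log2 differences from controls were −0.18 in Dot1l(fl/+) (SE 0.055, 95% interval −0.30 to −0.06, edgeR adjusted p = 0.541) and −0.12 in Dot1l(fl/fl) (SE 0.056, 95% interval −0.24 to −0.0027, edgeR adjusted p = 0.999). With the length and GC offset the first was −0.10, which still passed an unadjusted p of 0.05. The second did not pass with that offset (−0.08), with DESeq2 on all libraries (−0.12), without control replicate 2 (−0.09) or 3 (−0.12), or without any 1 of the Dot1l(fl/fl) libraries (−0.11, −0.11 and −0.14). Epha5 and Ntn1 were the only 2 of the 67 genes below all controls in both floxed genotypes, a pattern held by 1.22% of all genes tested; none of the 67 was above all controls in both, against 1.45%.

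Epha4, which signals in neurons and glia (ENSMUSG00000026235, chr1:77367185-77515088, minus strand), was highest in Dot1l(fl/fl). It was at 241, 231 and 271 CPM in controls, at 242, 226 and 247 with 1 floxed allele and at 283, 288 and 254 with 2. The Dot1l(fl/fl) libraries were all above those of Dot1l(fl/+), but 1 of them lay inside the range of controls. The log2 fold change of Epha4 was 0.15 against controls (SE 0.068, 95% interval 0.0047 to 0.30, edgeR adjusted p = 0.999) and 0.21 against Dot1l(fl/+) (SE 0.068, 95% interval 0.06 to 0.35, edgeR adjusted p = 0.708). The value against controls did not pass an unadjusted p of 0.05 without control replicate 1 (0.13) or 2 (0.11), Dot1l(fl/+) replicate 1 (0.15), or Dot1l(fl/fl) replicate 1 (0.13) or 2 (0.12). Markers of cortical and hippocampal neurons, which also express Epha4, summed to 129%, 127% and 102% of the control mean in these Dot1l(fl/fl) libraries, against 92.0 to 113% in controls, and their part in the Epha4 result was not tested. Epha10, a receptor without kinase activity, was at 73.1, 74.5 and 66.5 CPM in controls and at 60.7, 60.8 and 67.7 in Dot1l(fl/fl), a log2 fold change of −0.18 (SE 0.066, 95% interval −0.32 to −0.04, edgeR adjusted p = 0.999) with overlapping groups. It did not pass without control replicate 1 (−0.16) or 2 (−0.14) or Dot1l(fl/fl) replicate 1 (−0.15) or 2 (−0.15), nor with the length and GC offset (−0.15). The summed CPM of the 9 Epha genes was 611 to 653 in controls, 571.6 to 603.5 with 1 floxed allele and 621 to 664 with 2.

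Of the Ephb receptors and the ephrins, Efna3 was the 1 gene with an unadjusted p under 0.05, and that was in Dot1l(fl/+). The medians of the 5 Ephb genes were −0.077 for Dot1l(fl/+) and −0.072 for Dot1l(fl/fl). Ephb6 was at 67.3 to 69.2 CPM in controls, 60.0 to 68.3 with 1 floxed allele and 64.0 to 66.5 with 2, so the last group lay below all controls at a log2 fold change of −0.072 (SE 0.057). Ephb1, linked to the dopamine neurons of the midbrain, was at 58.2 to 73.6, 62.0 to 68.3 and 64.2 to 65.6 CPM. Efna3, an ephrin-A ligand, was at 27.2, 28.04 and 29.5 CPM in controls, at 29.1, 32.9 and 32.8 with 1 floxed allele and at 31.3, 31.9 and 30.7 with 2. It was above all controls in Dot1l(fl/fl) and overlapped with them in Dot1l(fl/+), with log2 fold changes of 0.15 (SE 0.071, 95% interval −0.0058 to 0.30, edgeR adjusted p = 0.999) and 0.16 (SE 0.070, 95% interval 0.0085 to 0.31, edgeR adjusted p = 0.573). The latter did not pass an unadjusted p of 0.05 without control replicate 1 (0.13) or 2 (0.16) or Dot1l(fl/+) replicate 2 (0.13) or 3 (0.13), nor with DESeq2 (0.16), without the filter (0.16), with the 2 genotypes alone (0.16) or with the length and GC offset (0.11). The value in Dot1l(fl/fl) passed when edgeR was fitted to it and controls alone (0.15), with the length and GC offset (0.16), without control replicate 3 (0.18) and without Dot1l(fl/+) replicate 1 or 2 (0.15 each). Of its exon bases 14.1% are shared with Gm15998, and whether counting used strand is not given in the sources used here, so reads of the pair may be mixed. Efna5, a ligand of Epha5, was at 13.9 to 17.2, 13.4 to 17.6 and 13.5 to 16.1 CPM. Efnb2 was at 27.1 to 32.9, 25.1 to 30.6 and 25.5 to 28.1, and Efnb3 at 152 to 162, 156 to 179 and 154 to 163, without separation of the genotypes.

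In the Slit and Robo families only Robo1 had an unadjusted p under 0.05, and that was in Dot1l(fl/+). Robo1, a receptor for Slits (ENSMUSG00000022883, chr16:72308306-73046095, plus strand), was at 88.0, 90.2 and 88.5 CPM in controls, at 81.3, 69.9 and 84.3 with 1 floxed allele and at 88.7, 83.0 and 82.9 with 2. All Dot1l(fl/+) libraries were below all controls, by a log2 fold change of −0.18 (SE 0.066, 95% interval −0.32 to −0.04, edgeR adjusted p = 0.541). Without Dot1l(fl/+) replicate 2, the lowest library, it was −0.10 and no longer passed an unadjusted p of 0.05. Nor did it without control replicate 2 (−0.16). Robo2, the other main neuronal receptor, was at 101 to 104 CPM in controls, 87.4 to 113 with 1 floxed allele and 103 to 106 with 2. Slit1 was at 138 to 155, 123.5 to 155 and 142 to 159 CPM, Slit2 at 59.9 to 75.5, 61.6 to 63.4 and 55.3 to 74.5, and Slit3 at 30.1 to 37.1, 31.0 to 35.8 and 34.8 to 37.4. The fold changes of the 3 Slits against controls lay between −0.13 and 0.067 on the log2 scale, with overlapping groups throughout.

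Among the 20 semaphorins, Sema5a differed between Dot1l(fl/+) and controls, and Sema3a and Sema6b between the floxed genotypes, at an unadjusted p under 0.05. Sema5a, a transmembrane semaphorin with thrombospondin repeats (ENSMUSG00000022231, chr15:32244810-32696341, plus strand), was at 145, 151 and 139 CPM in controls, at 141, 108 and 125 with 1 floxed allele and at 133, 142 and 142 with 2. Between Dot1l(fl/+) and controls the log2 fold change was −0.22 (SE 0.079, 95% interval −0.39 to −0.05, edgeR adjusted p = 0.541), with 1 Dot1l(fl/+) library inside the range of controls. Without Dot1l(fl/+) replicate 2 it was −0.12 and no longer passed an unadjusted p of 0.05. The same held without control replicate 2 (−0.18). Without the filter on low counts, the edgeR adjusted p of Sema5a was 0.0431.

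Sema3a, a secreted repellent of many axons (ENSMUSG00000028883, chr5:13125414-13602565, plus strand), was near the low end of detection. It was at 2.65, 3.44 and 4.70 CPM in controls, at 4.03, 5.26 and 4.96 with 1 floxed allele and at 3.08, 3.24 and 3.40 with 2. The Dot1l(fl/fl) libraries were all below those of Dot1l(fl/+), and the controls spanned nearly the range of both. The log2 fold change between the floxed genotypes was −0.56 (SE 0.19, 95% interval −0.97 to −0.14, edgeR adjusted p = 0.726), the largest of any guidance gene in size. In Dot1l(fl/+) against controls it was 0.39 (SE 0.19, 95% interval −0.01 to 0.80, edgeR adjusted p = 0.604). This value was 0.22 without control replicate 1, and it passed an unadjusted p of 0.05 without control replicate 3 (0.64) or Dot1l(fl/+) replicate 1 (0.50), without the filter (0.40) and with the length and GC offset (0.52). Choroid plexus and ependymal markers, at 93.5 to 471% of the control mean in Dot1l(fl/+) and at 34.1 to 41.0% in Dot1l(fl/fl), separated these genotypes in the same direction. So did cholinergic neuron markers, at 117 to 179% and 57.7 to 116.7%, and the part of these lists in the Sema3a result was not tested.

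Sema6b, a transmembrane semaphorin that binds A-type plexins, was at 96.1 to 97.5 CPM in controls, at 101 to 111 with 1 floxed allele and at 88.4 to 101 with 2. All Dot1l(fl/+) libraries were above all controls, and the log2 fold change between the floxed genotypes was −0.16 (SE 0.059, 95% interval −0.28 to −0.03, edgeR adjusted p = 0.726). It did not pass an unadjusted p of 0.05 without Dot1l(fl/+) replicate 3 (−0.11) or Dot1l(fl/fl) replicate 2 (−0.14) or 3 (−0.12), and with the length and GC offset it was −0.098 and passed. The choroid plexus, ependymal and cholinergic marker sums given with Sema3a and 9 of the 12 oligodendrocyte markers were also lower in Dot1l(fl/fl) than in Dot1l(fl/+), and their part in the Sema6b result was not tested. Sema7a, which guides axons through Plxnc1 and integrins, was at 116 to 129, 123.3 to 133 and 120 to 122.97 CPM in the 3 genotypes, a log2 fold change of 0.077 (SE 0.053) in Dot1l(fl/+) and of −0.00057 (SE 0.053) in Dot1l(fl/fl). Sema3c was at 37.2 to 42.1, 35.4 to 39.7 and 37.8 to 41.9 CPM, and Sema3f at 16.3 to 20.6, 17.8 to 20.7 and 16.3 to 18.6. In Dot1l(fl/fl) 16 of the 20 semaphorins had negative fold changes against controls, with a median of −0.054. In Dot1l(fl/+) 9 did, with a median of 0.0073. Of the 67 guidance genes 71.6% were lower in Dot1l(fl/fl) and 62.7% in Dot1l(fl/+), against 49.6% and 51.1% of all genes tested.

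Of the plexins and neuropilins, Plxnd1 was lower in Dot1l(fl/fl). Plxnd1, a receptor for Sema3e that is also found on vessels (ENSMUSG00000030123, chr6:115954811-115995005, minus strand), was at 24.4, 21.7 and 23.0 CPM in controls, at 20.4, 22.8 and 20.3 with 1 floxed allele and at 18.9, 20.2 and 19.5 with 2. The Dot1l(fl/fl) libraries were below all libraries of the other genotypes, at a log2 fold change of −0.24 against controls (SE 0.083, 95% interval −0.41 to −0.06, edgeR adjusted p = 0.999). Without control replicate 1 it was −0.19 and did not pass an unadjusted p of 0.05. Nrp1, the co-receptor of Sema3a and of vascular endothelial growth factor, was at 103, 106 and 107 CPM in controls, at 96.2, 106 and 105 with 1 floxed allele and at 111, 116 and 111 with 2. Its Dot1l(fl/fl) libraries were above all others, with log2 fold changes of 0.095 against controls (SE 0.051, 95% interval −0.02 to 0.21, edgeR adjusted p = 0.999) and 0.13 against Dot1l(fl/+) (SE 0.051, 95% interval 0.02 to 0.25, edgeR adjusted p = 0.726). The latter did not pass without Dot1l(fl/+) replicate 1 (0.09) or Dot1l(fl/fl) replicate 2 (0.11), with DESeq2 on the 2 genotypes alone (0.13) or with the length and GC offset (0.09). Nrp2, the co-receptor of Sema3f, was at 69.1 to 78.0, 68.5 to 72.8 and 73.4 to 79.5 CPM. Endothelial markers summed to 95.7 to 103.5% of the control mean in all 9 libraries. Mural and meningeal markers were at 97.2 to 103% in controls, 82.7 to 99.5% in Dot1l(fl/+) and 91.9 to 109% in Dot1l(fl/fl), with all 11 of them higher in Dot1l(fl/fl) than in Dot1l(fl/+), the direction of Nrp1, and none at an unadjusted p under 0.05 by edgeR. The summed level of GABA neuron markers also separated the floxed genotypes in that direction, with 4 of its 8 genes higher and 4 lower, and the part of these lists and of the oligodendrocyte markers in the Plxnd1, Nrp1, Epha4 and Epha7 results was not tested. Plxna1 was at 147 to 165, 154 to 166 and 135 to 158 CPM, Plxnc1 at 58.8 to 64.1, 60.1 to 64.5 and 56.0 to 61.5, and Plxna3 at 46.6 to 50.1, 33.8 to 47.6 and 41.0 to 50.9, with Dot1l(fl/+) replicate 2 the lowest library of the last.

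**Figure D4:**
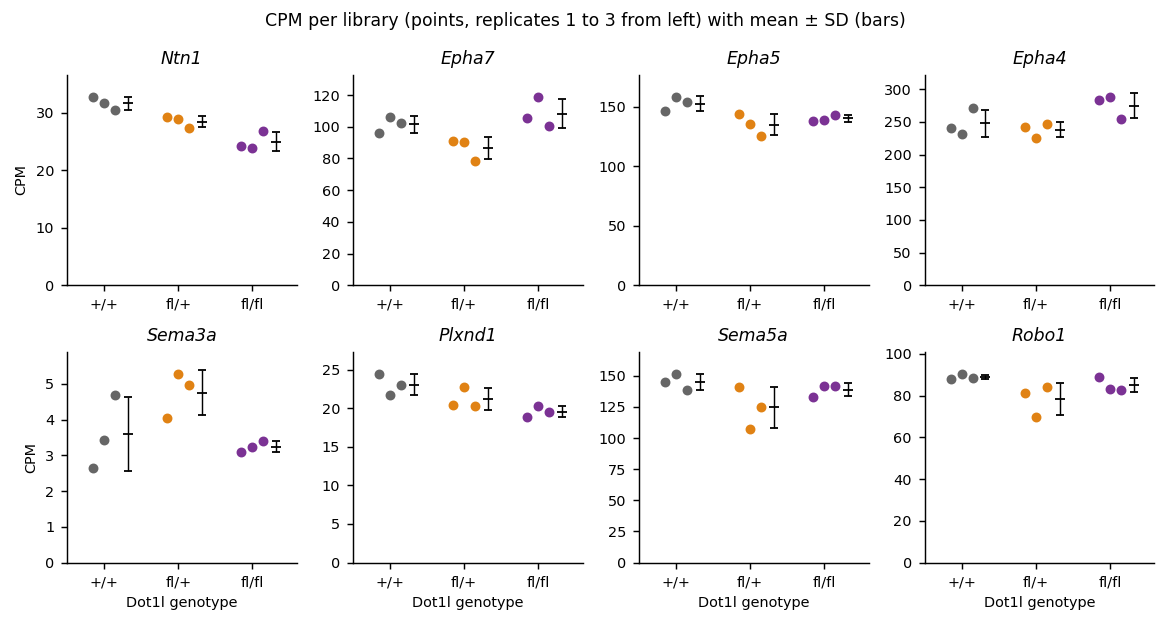
CPM in each library for the 8 guidance genes with an unadjusted p under 0.05 in the test among the 3 genotypes; points are libraries, bars are means ± SD of 3 libraries, and axes start at 0. Ntn1 steps down from 30.5 to 32.7 CPM in controls to 24.0 to 26.9 CPM in Dot1l(fl/fl), Epha7 is lowest in Dot1l(fl/+), and the lowest Robo1 and Sema5a values belong to Dot1l(fl/+) replicate 2.

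Total counts of genes whose libraries did not overlap were near the background. Against controls the lower share was above the background and the higher share below it, with few genes in each count. Of the 67 genes, 7 (10.4%) did not overlap between Dot1l(fl/+) and controls, against 13.3% of all genes tested; 6 (8.96%) were lower, against 6.47%, and 1 (1.49%) higher, against 6.84%. Between Dot1l(fl/fl) and controls 7 (10.4%) did not overlap, against 10.3%; 5 (7.46%) were lower, against 5.25%, and 2 (2.99%) higher, against 5.03%. Between the floxed genotypes there were 8 (11.9%), against 11.1%; 4 (5.97%) were lower, against 5.14%, and 4 (5.97%) higher, against 5.98%. Without Dot1l(fl/+) replicate 2 the unadjusted calls were 5 in Dot1l(fl/+) against controls (10.2% of all genes), of which Epha5 and Epha7 were also called with it, while Robo1, Sema5a and Efna3 were not called and Efnb2, Efnb3 and Sema4g, the last named after its values were seen, were. In the same fits there were 7 calls between Dot1l(fl/fl) and controls (5.23%) and 12 between the floxed genotypes (9.79%), 11 for any difference (8.88%), and adjusted p-values under 0.05 were reached by 5, 4, 12 and 13 of all genes but by no guidance gene.

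The median half-width of the 95% interval of a log2 fold change was 0.20 in each comparison, and the whole interval lay within 0.5 log2 units of 0 for 58, 62 and 61 of the 67 genes in the 3 comparisons.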

How the data were processed

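Total RNA from dissected ventral midbrain was made into libraries with a directional kit and sequenced. Raw counts per Ensembl gene were deposited by the authors, who used bcl2fastq 2.17, Trimmomatic 0.30 and genome build GRCm38.p4 per the labels; the aligner, the counter and its strand setting are not given in the sources used here. The deposited tables of DESeq2 (1.10.1) comparisons hold mean normalized counts, fold changes and p-values, and were not used.

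Genes were kept by edgeR's filterByExpr (17671 kept), scaled by TMM (factors 0.988 to 1.01) and fitted in 1 quasi-likelihood model, with all 9 libraries and a term for genotype alone (edgeR 4.0.16, R 4.3.3; common biological coefficient of variation 8.81%). P-values were adjusted by Benjamini-Hochberg over all genes tested, with a threshold of 0.05; an unadjusted p under 0.05 is used only to count and is read against its share of all genes. CPM are per counts on the kept genes. Exon lengths, biotypes and coordinates came from GENCODE M21 (GRCm38); sequences came from RefSeq. The scripts were tested on simulated data. Alternatives were DESeq2 1.42.0, its size factors within edgeR, no filter or a stricter one (10 counts in every library), pairs of genotypes, a length and GC offset, a replicate block, and each library left out.

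The members and lists were chosen with earlier results of these data known. Named are the 8 guidance genes with the lowest p in each comparison, those with an adjusted p under 0.05 (0), the highest per length in each family, genes failing the filter, a set of genes known from dopamine axons (Ntn1, Dcc, Unc5c, the Slits, Robo1, Robo2, Sema3a, Sema3c, Sema3f, Nrp1, Nrp2, Sema7a, Plxnc1, Epha5, Efna5, Ephb1 and Efnb2), and those apart from all controls in both floxed genotypes; of the other lists, the 3 genes with the lowest p per comparison. Robo3, Robo4, Epha1, Efna4, Ntn4 and Sema4g were named after their values were seen.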

Additional observations from a re-analysis of the deposited data

How the results depend on the processing

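Across the settings other than leaving out a library, the number of guidance genes with an unadjusted p under 0.05 ranged from 4 to 10 in Dot1l(fl/+) against controls, 4 to 8 in Dot1l(fl/fl), 4 to 8 between the floxed genotypes and 5 to 12 for any difference. It was 10 without the filter on low counts (7.61% of all genes called) and 8 with the replicate block (9.34%; Plxna3, Robo3 and Sema3a added) in Dot1l(fl/+), 8 in Dot1l(fl/fl) when only those 2 genotypes were fitted (5.57%), and 5 for any difference with the length and GC offset, without the replicate block (5.47%) or with it (6.16%). In the pairwise comparisons only edgeR without the filter gave guidance genes an adjusted p under 0.05: Sema5a and Epha7 in Dot1l(fl/+) (0.0431 and 0.0497), Ntn1 in Dot1l(fl/fl) (0.0410), and Epha7 between the floxed genotypes (0.000309). With each library left out the counts ranged from 3 to 11, 2 to 7, 4 to 12 and 4 to 11, and the medians from −0.058 to −0.019, −0.065 to −0.019 and −0.042 to 0.033. In Dot1l(fl/+) the count was 3 without control replicate 2 (6.72% of all genes) and 11 without replicate 1 of Dot1l(fl/+) (12.5%); in Dot1l(fl/fl) it was 2 without control replicate 1 or 2 or Dot1l(fl/fl) replicate 1 or 2 (2.13 to 3.81%); between the floxed genotypes leaving out Dot1l(fl/+) replicate 2 gave 12 (9.79%), and leaving out Dot1l(fl/fl) replicate 2 gave 4 (5.55%); for any difference it was 11 when Dot1l(fl/+) replicate 1 (9.46%) or 2 (8.88%) was left out, 4 when Dot1l(fl/fl) replicate 2 was (5.29%), and 5 without control replicate 1 or 2 or Dot1l(fl/fl) replicate 1 (4.98 to 5.44%). The log2 fold change of Dot1l in Dot1l(fl/+) passed an unadjusted p of 0.05 at −0.18 without the filter, −0.19 with the replicate block, −0.18 with the length and GC offset and −0.19 with both, and between the floxed genotypes at 0.15 with both; with a library left out it ranged from −0.29 to −0.063, −0.095 to −0.016 and −0.0059 to 0.23. None of the 16 calls of named guidance genes between genotypes changed sign in any setting, while 33 of their 80 values without a call did in at least 1, such as Nrp1 (0.016) and Robo2 (0.056) in Dot1l(fl/+) with the length and GC offset. The calls were picked for lying far from 0 in the same libraries, so a change of sign was unlikely in advance. Their unchanged sign is therefore no independent support. The median between the floxed genotypes was −0.0010 when only those 2 were fitted and −0.0027 with 10 counts in every library, and Dot1l between them turned negative without Dot1l(fl/+) replicate 2. Of the 16 calls, 8 were lost in at least 1 setting other than leaving out a library, Epha5 in Dot1l(fl/+) (−0.10) and Sema6b between the floxed genotypes (−0.098) only with the replicate block and the offset together, which also lost Ntn1 between the floxed genotypes (−0.17); the block alone lost Epha5 in Dot1l(fl/fl) (−0.12). Of the 80 values without a call, 20 passed an unadjusted p of 0.05 in at least 1 setting. Of the 16 calls, 6 passed in every fit that left out 1 library: Epha5 and Epha7 in Dot1l(fl/+), Ntn1 in Dot1l(fl/fl), and Epha7, Epha4 and Sema3a between the floxed genotypes. Same-numbered pools deviated together with correlations of 0.022 to 0.317, over 0.1 in 6 of 9 pairs, and in 15 of 18 cases a library correlated best with its own number; the numbers are not stated to mark the litter-matched sets, so the block is given only here. The causes of these shifts were not tested.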

Other observations

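Of 61 genes for downstream effectors, which carry guidance signals inside the axon, 4 passed an unadjusted p under 0.05 in Dot1l(fl/+) (2 in each direction), against 8.39% of all genes tested, and 3 in Dot1l(fl/fl) (2 of them higher), against 3.93%, with median log2 fold changes of 0.0087 and 0.0082. Between the floxed genotypes there were 2, against 6.48%. Over the settings other than leaving out a library, the counts in these 3 comparisons were 2 to 6, 3 to 5 and 2 to 6. The first count was 10 without Dot1l(fl/+) replicate 2 (10.2% of all genes in that fit) and 2 without control replicate 1 (7.19%) or 3 (5.45%), and the third was 14 when Dot1l(fl/+) replicate 2 was left out (9.79%), or 1 when Dot1l(fl/+) replicate 3 (4.9%) or Dot1l(fl/fl) replicate 1 (5.37%) was. The second was 0 without control replicate 1 (2.94%), 1 without control replicate 2 or Dot1l(fl/fl) replicate 1 or 2 (2.13 to 3.81%), and 5 without control replicate 3 (3.62%) or Dot1l(fl/fl) replicate 3 (5.26%). Evl, which promotes actin filament growth, was at 83.3, 83.3 and 75.3 CPM in controls, 93.6, 96.3 and 91.2 with 1 floxed allele, and 87.1, 86.2 and 76.8 with 2. Cfl1, the actin-severing cofilin, was at 239 to 261, 266 to 305 and 253 to 306 CPM, and the kinase Abl1 at 80.9 to 85.8, 75.1 to 76.0 and 69.4 to 79.1 CPM, below all controls in both floxed genotypes. Dock4, an activator of Rac, was at 162 to 183, 171 to 180.5 and 180.4 to 207 CPM, and Mical2, an actin-oxidising enzyme, at 184 to 199.6, 179 to 202 and 193 to 227, with overlapping groups in each case. No edgeR adjusted p of these genes was under 0.05 in the fit of all 9 libraries.

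Of 43 other cues, receptors and adhesion partners tested, 3 were lower and 0 higher in Dot1l(fl/+) at an unadjusted p under 0.05 by edgeR, against 4.09% and 4.3% of all genes tested, and 0 passed in Dot1l(fl/fl), against 3.93%, by edgeR or by DESeq2 on all libraries. Between the floxed genotypes 2 were higher and 2 lower, against 3.6% and 2.87%. Over the settings other than leaving out a library, the counts in these 3 comparisons were 2 to 6, 0 to 3 and 2 to 4. With each library left out these counts were 2 to 9, 0 to 2 and 0 to 8, with 9 (10.2% of all genes) and 8 (9.79%) without Dot1l(fl/+) replicate 2, while the last was 0 when Dot1l(fl/fl) replicate 2 was left out, or 1 when Dot1l(fl/+) replicate 1 or Dot1l(fl/fl) replicate 3 was. Ntng2, the membrane-anchored netrin-G2, was at 28.1, 28.5 and 29.2 CPM in controls, 23.03, 22.96 and 24.8 with 1 floxed allele and 25.7, 26.6 and 27.2 with 2. Ackr3, a receptor that takes up the chemokine Cxcl12, was at 12.02 to 13.7, 9.92 to 11.1 and 12.2 to 12.4 CPM. For Ntng2 and Ackr3 every Dot1l(fl/+) library was below every other library, and Ntng2 in Dot1l(fl/fl) was also below all controls. Flrt2, an adhesion partner of Unc5 receptors, was at 57.2 to 60.6, 46.4 to 57.3 and 55.9 to 59.4 CPM, and Cntn2, an axonal adhesion protein, at 304 to 331, 294 to 342 and 276 to 312. Mag, the myelin-associated glycoprotein, was at 335 to 372, 363 to 408 and 330 to 353 CPM, higher in every Dot1l(fl/+) library than in any of Dot1l(fl/fl), and Wnt4, a secreted Wnt, was at 10.2 to 12.9, 11.7 to 16.9 and 13.6 to 14.8, above all controls in Dot1l(fl/fl) without an unadjusted p under 0.05.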
